A study of Mus musculus with 8 samples.

Results

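Peaks of N6-methyladenosine (m6A) that were listed over 3 or more separate exon blocks made up 2568 of 29586 peaks in control T cells and 1280 of 23368 peaks in T cells treated with PTC. A block is a stretch of exon that the authors' list gives its own start and length, and the parts between blocks are skipped, so the spliced width of a peak is the sum of its blocks. The members were chosen by the block count of each listed peak alone, and peaks with 1 block, 21356 in control and 17886 in PTC, are given beside them. The cells were mouse primary T cells kept for 24 h, untreated or with an agent that the labels name PTC and do not describe. Each condition had 2 samples of m6A-immunoprecipitated RNA and 2 samples of input, 8 samples in all, and the labels do not say whether these came from separate animals or cultures. The peaks were deposited as 1 list per condition, so no value per sample could be given, and no difference between the lists has a replicate check or a p-value. In the authors' deposited table, 19420 peaks are given for control and 15855 for PTC, fewer than the lists hold, and the reason is not given in the sources used here.

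N6-methyladenosine is a methyl mark that the METTL3 and METTL14 methyltransferase complex places on adenosines of messenger RNA, mostly within the sequence DRACH, of which GGACT is a common form. The mark is known to be dense in long internal exons, around stop codons and in 3' untranslated regions (UTRs), and to be sparse close to exon junctions, where the exon junction complex sits on spliced RNA. A peak that spans several short exons therefore covers a kind of sequence in which the mark is known to be less common. In T cells m6A is known to act on the stability of transcripts of cytokine signalling.

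The label of the cells was set beside marker lists. T cell markers had a peak for 21 of 22 genes in the control list and 22 of 22 in the PTC list, hepatocyte markers for 0 of 12 in both. B cell markers were listed for 14 of 18 genes in control and 13 in PTC, and myeloid markers for 9 of 18 and 12 of 18. The part of other blood cells in the results was not tested.

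To show what such a peak reads, short members inside coding sequence are printed. Of 25 control members of up to 300 nt that were wholly coding, held a GGACT and were overlapped by a PTC peak, these are the 4 with the lowest false discovery rate (FDR). They come from Arhgdib, a cytoskeletal regulator of blood cells, Zfp207, a spindle assembly protein, Stip1, a co-chaperone that bridges HSP70 and HSP90, and Eprs, the glutamyl-prolyl-tRNA synthetase. The letters were read from GENCODE M21 transcripts (build GRCm38), 5' to 3' across the joined blocks, with GGACT in capitals, and each holds it once.
Arhgdib: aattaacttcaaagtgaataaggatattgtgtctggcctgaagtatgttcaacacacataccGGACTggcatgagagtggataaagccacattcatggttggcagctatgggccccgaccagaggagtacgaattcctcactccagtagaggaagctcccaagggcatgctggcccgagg
Zfp207: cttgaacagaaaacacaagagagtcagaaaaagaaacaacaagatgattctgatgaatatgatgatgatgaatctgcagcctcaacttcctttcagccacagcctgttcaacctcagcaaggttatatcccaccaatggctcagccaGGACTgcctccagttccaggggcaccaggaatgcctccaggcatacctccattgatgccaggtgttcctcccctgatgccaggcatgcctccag
Stip1: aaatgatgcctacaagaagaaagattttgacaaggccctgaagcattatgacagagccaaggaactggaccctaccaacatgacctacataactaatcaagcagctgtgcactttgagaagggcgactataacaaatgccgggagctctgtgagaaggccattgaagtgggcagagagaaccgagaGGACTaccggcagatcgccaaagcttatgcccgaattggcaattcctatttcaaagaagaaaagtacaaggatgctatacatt
Eprs: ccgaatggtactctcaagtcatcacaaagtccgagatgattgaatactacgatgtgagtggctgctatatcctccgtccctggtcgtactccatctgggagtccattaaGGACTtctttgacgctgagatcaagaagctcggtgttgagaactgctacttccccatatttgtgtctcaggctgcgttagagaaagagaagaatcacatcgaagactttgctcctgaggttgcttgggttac

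The Arhgdib peak lies at chr6:136924224-136929624 on the minus strand and joins blocks of 13, 64 and 103 nt. Its GGACT starts at base 63 of 180, in the middle block. The authors' fold enrichment, taken here as immunoprecipitate over input, was 1.72 and their −log10 FDR was 67.2, and a PTC peak covered 100% of its bases. The Zfp207 peak at chr11:80387922-80389308 on the plus strand joins 19, 168 and 54 nt, with GGACT from base 148 of 241. Its fold enrichment was 2.24 and its −log10 FDR 34.9. The Stip1 peak at chr19:7028687-7029211 on the minus strand joins 104, 103 and 62 nt, with GGACT from base 187 of 269. Its fold enrichment was 1.76 and its −log10 FDR 19. The Eprs peak at chr1:185410220-185411716 on the plus strand joins 17, 210 and 14 nt, with GGACT from base 110 of 241. It was listed with the same 3 blocks in PTC, at a fold enrichment of 1.95 (−log10 FDR 17.6) in control and 1.74 (9) in PTC. All 4 matches lie in the middle block, and all 4 peaks have fold enrichments below the control members' median of 3.33.

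Peaks of 3 or more blocks were a larger share of the control list than of the PTC list. The share was 8.68% of control peaks (95% interval 8.36 to 9.01%) and 5.48% of PTC peaks (5.19 to 5.78%), by exact Clopper-Pearson intervals, which here and below cover counting error only. Peaks of 1 block were 72.2% and 76.5%, and peaks of 2 blocks 19.1% and 17.98%. Exactly 3 blocks were held by 1725 control and 967 PTC members, 4 blocks by 535 and 201, and 5 or more by 308 and 112. The order was the same at equal numbers of peaks. Among the 1000 peaks of each list that rank highest by −log10 FDR, 29.2% of control and 21.1% of PTC peaks were members. Among the strongest 5000 these shares were 19.96% and 12.9%, and among the strongest 20000 they were 11.5% and 6.24%.

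**Figure D1:**
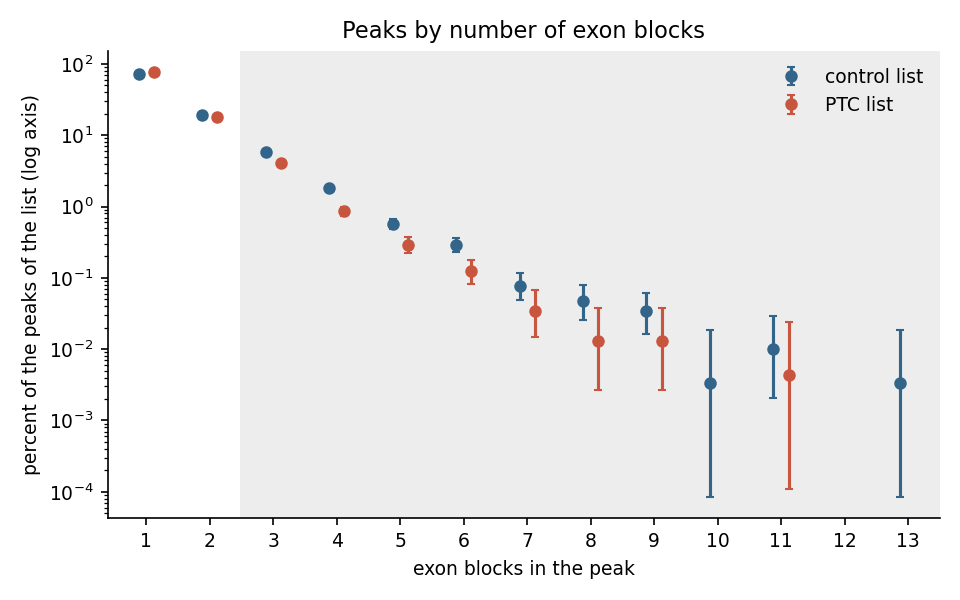
Percent of the peaks of each list (y axis, log scale) by the number of exon blocks in the peak (x axis); blue points are the control list, red points the PTC list, and bars are exact 95% binomial intervals. The shaded part holds the members, and at 3 to 6 blocks the control shares (5.83% and 1.81% at 3 and 4 blocks) lie above the PTC shares (4.14% and 0.860%) with intervals that do not touch.

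The members with the most blocks had 13 in control and 11 in PTC. In control, Ftsj3, a methyltransferase-like protein of ribosomal RNA processing, had a peak of 13 blocks at chr11:106249172-106253502. It held 2418 nt of exon in a span of 4331 nt, with a fold enrichment of 4.09. In the PTC list 3 partners, the largest of 6 blocks, covered 90.2% of it. Ccdc88b, a Hook-related protein of immune cells, Eif4g1, the scaffold of the cap-binding complex, and Sart1, a component of the spliceosome, had control peaks of 11 blocks and 2361, 1557 and 1138 nt. PTC peaks covered 53.2%, 38.6% and 68.5% of them. Pdia4, a disulfide isomerase of the endoplasmic reticulum, had a control peak of 9 blocks and 1919 nt over its stop codon. In PTC, Eif3a, the largest subunit of initiation factor eIF3, had a peak of 11 blocks and 2932 nt at chr19:60761505-60772989. Over that stretch the control list had a pair of peaks of 6 and 7 blocks (2274 and 899 nt), which covered 90.9% of it. Ssb, an RNA chaperone, Ccar1, a transcriptional coactivator, and Abcf1, a translation factor, had PTC peaks of 9 blocks, and Ttc1 had one of 8.

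The strongest members included peaks of lymphocyte messages, and the named ones were covered in the other list for most of their bases. The FDR was below what the file can hold for 12 control and 20 PTC members. In control these included Cd79b, a chain of the B cell receptor, Gzmb, the cytotoxic protease granzyme B, and the class I histocompatibility genes H2-K1, H2-Q4 and H2-Q6. In PTC they included B2m, the light chain of class I molecules, Cd8b1, a chain of the CD8 co-receptor, Cytip, a protein that binds cytohesin, and Ddx6, a helicase of messenger RNA decay. The Ddx6 peak at chr9:44604892-44612835 had its midpoint in the 5' UTR and a fold enrichment of 28.6, while the B2m peak had 1.94. Between 86.8% (H2-Q4) and 100% (H2-K1) of each of these 5 control peaks was covered by PTC peaks, and of the 4 PTC peaks between 82.4% (B2m) and 100% (Cd8b1 and Ddx6) by control peaks. The H2 genes have close copies in the genome, and which copy a read came from is uncertain.

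Members were wider than peaks of 1 block. The rule bears on this order too, as a wider peak can cross more exon junctions. Their median spliced width was 479 nt in control (95% interval of the median 450 to 507) and 541 nt in PTC (535 to 600), against 240 and 241 nt for 1 block. The middle 50% of members ran from 270 to 955 nt in control and from 301 to 1019 nt in PTC. On the genome the members spanned a median of 2992 and 3414 nt. Peaks of exactly 3 blocks had a median of 361 nt in control and 493 nt in PTC, peaks of 4 blocks 569 and 718 nt, and peaks of 5 or more 868 and 898 nt. The lists step in units of about 30 nt. The spliced width was within 1 nt of a multiple of 30 for 70.3% of control members and 64.4% of PTC members, where even spacing would give 10%.

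**Figure D2:**
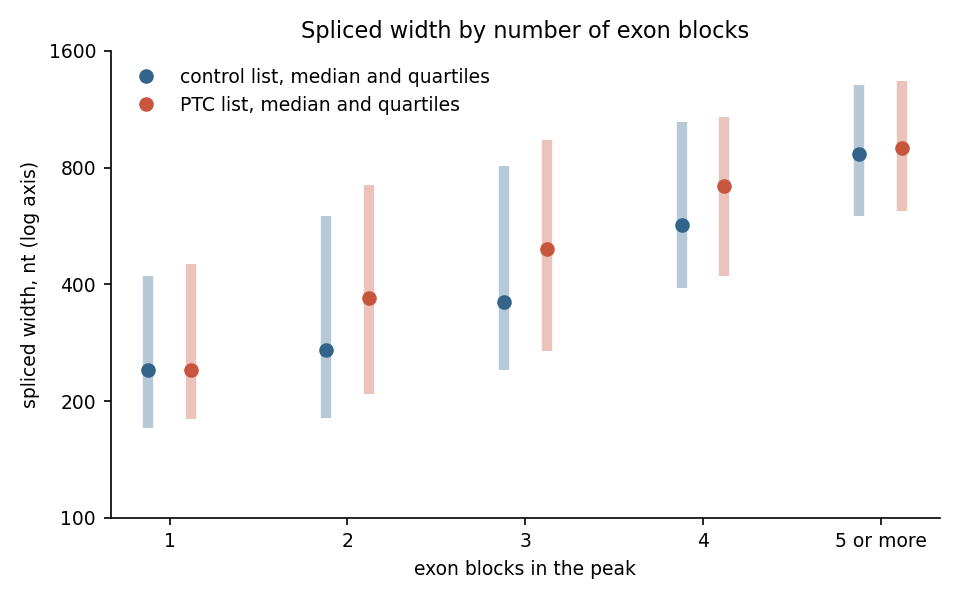
Spliced width in nt (y axis, log scale) of peaks by the number of exon blocks (x axis), control in blue and PTC in red; points are medians and bars run from the first to the third quartile. Medians go from 240 and 241 nt at 1 block to 868 and 898 nt at 5 or more blocks, and at 2, 3 and 4 blocks the PTC median lies above the control median.

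The widest members covered long exons joined to short neighbours. Plec, which encodes the cytolinker plectin, had a control peak of 9 blocks and 9597 nt, of which blocks of 3381 and 5133 nt made up most. Its widest PTC peak had 3 blocks and 7078 nt and was wholly covered by the control peak. Zfp292, a zinc finger gene, had a PTC peak of 8846 nt that consisted of blocks of 133 and 142 nt and a last block of 8571 nt. Son, a nuclear speckle protein, had a control peak of 6089 nt with 16 matches of GGACT. Macf1, a linker of actin and microtubules, had a control peak of 5519 nt with a fold enrichment of 23.2.

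Internal blocks, which are neither the first nor the last of a member, were somewhat longer than annotated internal exons. Their median was 139 nt in control (136 to 142) and 143 nt in PTC (138 to 148), and 62.0% and 57.6% of them were 80 to 200 nt long. The internal exons of the annotated transcripts that the members were matched to had medians of 129 nt (128 to 129) and 131 nt (130 to 132). The blocks are those of all members, while only 1816 control and 881 PTC members could be matched to a transcript. Internal blocks over 400 nt made up 7.52% in control and 11.4% in PTC, against 3.34% and 3.98% of those exons. The first block, at the 5' end, was short, with a median of 50 and 47 nt, and the last block had a median of 92 and 124 nt. The last block exceeded 400 nt in 23.5% of control and 29.8% of PTC members. The longest block of a member was internal in 51.4% and 48.0%, the last one in 36.4% and 41.3%, and the first one in 12.3% and 10.7%.

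Some blocks were only a few bases long. A block of under 10 nt was held by 439 control members (17.1%) and 206 PTC members (16.1%), and internal blocks accounted for 8 such blocks in control and 4 in PTC. The gaps between blocks had medians of 551 nt in control and 771 nt in PTC, and 90.6% and 89.2% of gaps were annotated introns of GENCODE M21. Members that could be read as 1 continuous slice of a single annotated transcript numbered 1816 (70.7%) in control and 881 (68.8%) in PTC, against 98.5% of peaks of 1 block in both lists. The others were not such a slice, and the reason was not tested.

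Members lay mostly in coding sequence, and peaks of 1 block mostly in 3' UTRs. A region could be given to 1634 control and 797 PTC members that are a slice of a coding transcript. The midpoint of the joined blocks was in coding sequence for 85.6% of these control members (83.8 to 87.2%) and 80.7% of the PTC members (77.8 to 83.4%), against 28.4% and 31.5% of peaks with 1 block. The 3' UTR held the midpoints of 13.3% and 17.2% of members, against 65.5% and 63.0%. Members wholly inside coding sequence made up 65.5% in control and 52.4% in PTC. The rule bears on this order, as 3' UTRs are mostly a single exon. The transcripts of members had a median of 16 exons in control and 14 in PTC, against 9 and 9 for peaks of 1 block.

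The stop codon, around which m6A is known to concentrate, was inside more members than peaks of 1 block. It was held by 26.7% of control members and 34.6% of PTC members, against 18.4% and 22.3%. Peaks of 2 blocks held it more often than members did, in 31.8% of control and 43.4% of PTC cases. The start codon was held by 10.0% and 15.4%, against 5.48% and 5.31%. Midpoints within 200 nt of the stop codon were no more frequent among members, with 16.3% and 19.9% against 16.4% and 20.8%. For peaks of 2 blocks these shares were 20.8% and 29.5%. Members were also the wider peaks, and the part of width in these shares was not tested. A few members held a whole coding sequence, 42 in control and 26 in PTC.

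**Figure D3:**
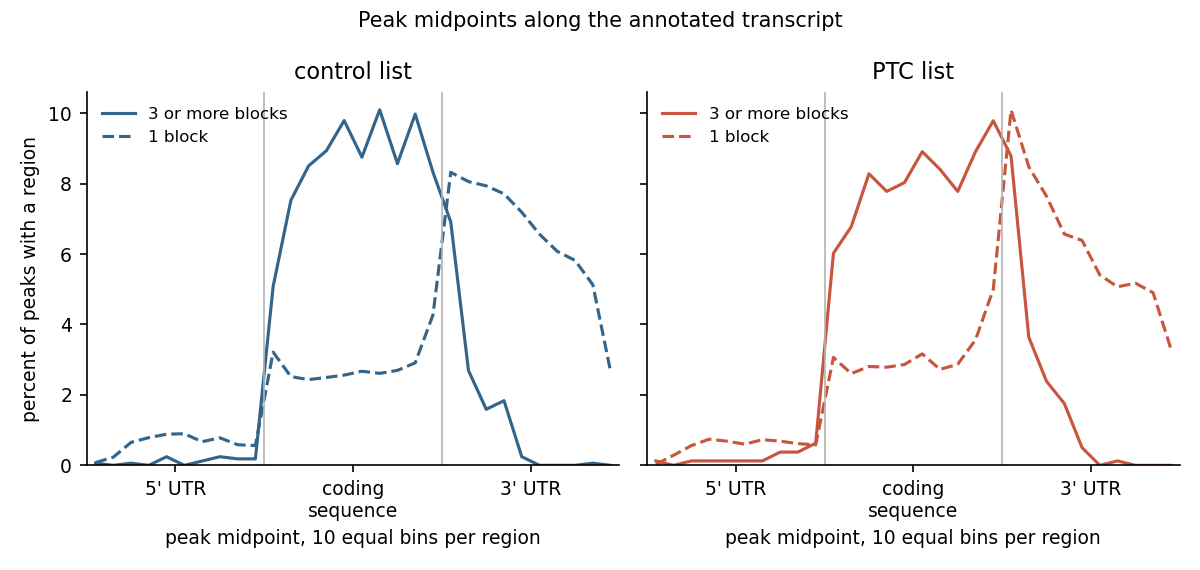
Percent of the peaks with a region (y axis) by the place of the peak's midpoint along its annotated transcript (x axis, 10 equal bins each for 5' UTR, coding sequence and 3' UTR, split by grey lines); solid lines are members, dashed lines peaks of 1 block, and the panels are the lists. Members fill the coding sequence and drop early in the 3' UTR (13.3% of control and 17.2% of PTC members in all), where most peaks of 1 block lie (65.5% and 63.0%).

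GGACT was as dense in control members as in control peaks of 1 block within the intervals, and less dense in PTC members than in PTC peaks of 1 block. The pentamer was searched on the transcript strand only. It occurred 1.21 times per 1000 nt in control members (1.15 to 1.27) and 1.20 times in PTC members (1.12 to 1.29), against 1.22 (1.19 to 1.24) and 1.34 times (1.31 to 1.37) in peaks of 1 block. The next densities are for peaks with the largest share of their bases, not the midpoint, in coding sequence. They were 1.18 (1.11 to 1.25) and 1.15 (1.05 to 1.25) in members and 1.28 (1.23 to 1.33) and 1.34 (1.29 to 1.39) in peaks of 1 block. Where the largest share was in 3' UTRs, members were not less dense, with 1.32 (1.20 to 1.46) and 1.35 (1.18 to 1.54). Peaks of 1 block there had 1.19 (1.16 to 1.23) and 1.34 (1.30 to 1.38). At the same spliced width of 180 to 270 nt, 19.2% of 416 control members (15.6 to 23.4%) and 21.6% of 148 PTC members (15.3 to 29.1%) held a GGACT, against 22.2% and 25.04% of peaks of 1 block. Among peaks of that width with a midpoint in coding sequence, the shares were 18.8% (14.9 to 23.1%) and 19.05% (12.6 to 27.0%) of members, against 25.7% (23.3 to 28.3%) and 27.3% (24.8 to 29.99%) of peaks of 1 block. The wider DRACH, which contains GGACT, occurred 22.4 and 23.3 times per 1000 nt in members, against 20.7 and 21.5.

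Bases near exon junctions were a large part of the members. Within 100 nt of a junction lay 50.03% of the bases of control members and 41.5% of those of PTC members, against 4.53% and 4.77% for peaks of 1 block. The rule fixes the direction of this difference, as members cross junctions and peaks of 1 block cross none. In these stretches GGACT occurred 1.14 times per 1000 nt in control members (1.06 to 1.23) and 1.15 times in PTC members (1.03 to 1.28). Farther from junctions it occurred 1.28 (1.20 to 1.37) and 1.24 times (1.13 to 1.35), and in both lists the intervals of the near and far densities overlapped. A match is a sequence and does not show a methylated site.

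Members were also the stronger peaks by FDR, though not by fold enrichment. Their median −log10 FDR was 14.4 in control and 23.6 in PTC, against 4.65 and 5.58 for peaks of 1 block. Of members 81.1% and 87.2% had a −log10 FDR of 5 or more, against 47.2% and 54.4%. The median fold enrichment was 3.33 and 3.60 in members, against 3.74 and 3.64. The FDR moves with width in these lists. Control members under 200 nt had a median −log10 FDR of 3.47 and those of 1600 nt or more 72.6.

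Most PTC members lay over a control peak, and fewer control members lay over a PTC peak. An overlap needed 1 shared base of the blocks on the same strand. A PTC peak overlapped 69.9% of control members (68.1 to 71.7%), where 60.2% of all control peaks were overlapped and 58.2% of those with 1 block. A control peak overlapped 92.9% of PTC members (91.3 to 94.2%), where the share was 78.8% of all PTC peaks and 75.9% of those with 1 block. The same 75 members, block for block, were in both lists.

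At the same strength the order within the control list turned. Control members had a lower overlapped share than control peaks of 1 block in each bin of −log10 FDR below 50. From 3 to 5 the shares were 27.2% of members (22.6 to 32.3%) and 43.7% of peaks with 1 block. From 5 to 10 they were 52.2% (47.9 to 56.4%) and 69.5%, from 10 to 20 they were 76.1% (71.9 to 79.9%) and 88.1%, and from 20 to 50 they were 96.0% and 97.7%. From 50 upward 100% and 99.2% were overlapped. Control peaks of 2 blocks also lay below peaks of 1 block at values under 20. Their shares were 32.7% from 3 to 5, 59.9% from 5 to 10, 85.6% from 10 to 20 and 98.4% from 20 to 50. At the same width the order was alike, with 45.9% of control members of 200 to 400 nt and 62.1% of peaks with 1 block, and with 83.7% and 89.4% from 400 to 800 nt. From 800 to 1600 nt it was not, with 99.1% and 98.8%, and from 1600 nt upward all of both were overlapped. Control peaks of 2 blocks had 61.6% from 200 to 400 nt and 95.8% from 400 to 800 nt. PTC members did not show the lower shares of the control members. From 3 to 5 the PTC shares were 73.6% of members (64.8 to 81.2%) and 64.9% of peaks with 1 block, and from 5 to 10 they were 86.6% and 85.8%.

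**Figure D4:**
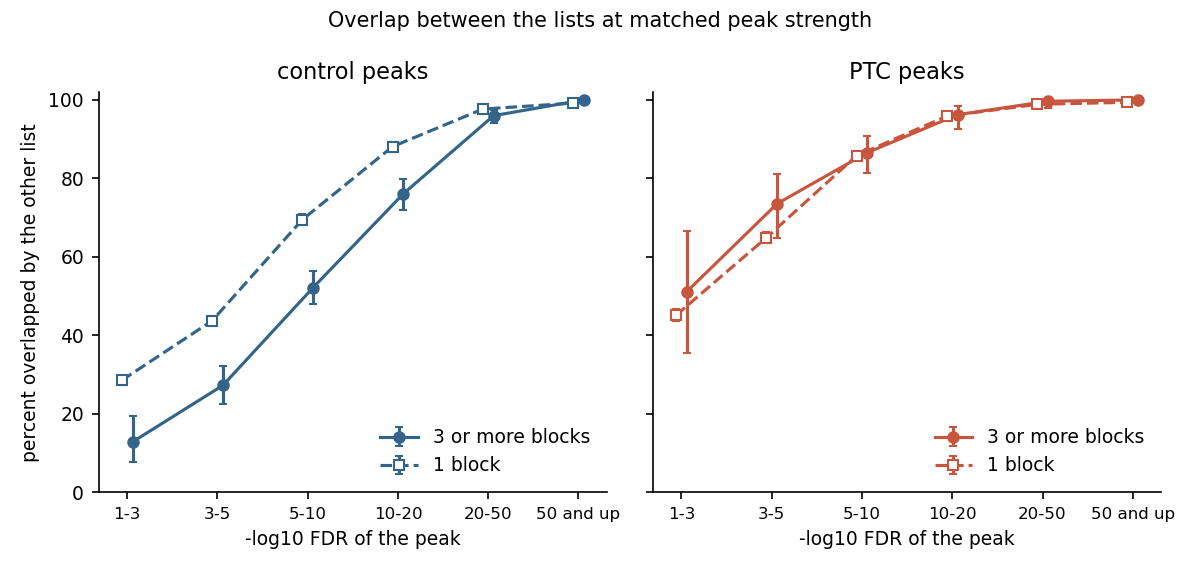
Percent of peaks overlapped by the other list (y axis) in bins of the peak's own −log10 FDR (x axis), for members (filled points, solid lines) and peaks of 1 block (open points, dashed lines), with exact 95% binomial intervals; the left panel is the control list and the right panel the PTC list. Control members lie below control peaks of 1 block from 1 to 50 (52.2% against 69.5% at 5 to 10), and in the PTC list the members lie at or above the peaks of 1 block (86.6% against 85.8%).

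Control members often met a PTC peak of fewer blocks. The PTC list had no overlapping peak for 773 control members (30.1%), at most a peak of 1 block for 209 (8.14%), at most 2 blocks for 664 (25.9%) and a peak of 3 or more blocks for 922 (35.9%). Of the PTC members 91 (7.11%) had no control partner, 44 (3.44%) met 1 block, 215 (16.8%) met 2 blocks and 930 (72.7%) met 3 or more. No partner was found for 41.8% of control and 24.1% of PTC peaks with 1 block. With 2 blocks this was 36.7% and 13.0%. Among all peaks, 60.2% in control and 78.8% in PTC had a partner. By the rule, a partner that is not a member has fewer blocks than a member. Control peaks of 2 blocks met at most 1 block in 19.6% of cases and 3 or more in 5.09%. In PTC these shares were 16.6% and 18.8%. A control member met more than 1 PTC peak in 382 cases (14.9%), and a PTC member more than 1 control peak in 181 (14.1%). In the 965 pairs of overlapping members the control peak was the wider one in 603, the PTC peak in 262, and the widths were equal in 100. The control peak had more blocks in 316 pairs, the PTC peak in 92, and the number was equal in 557.

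**Figure D5:**
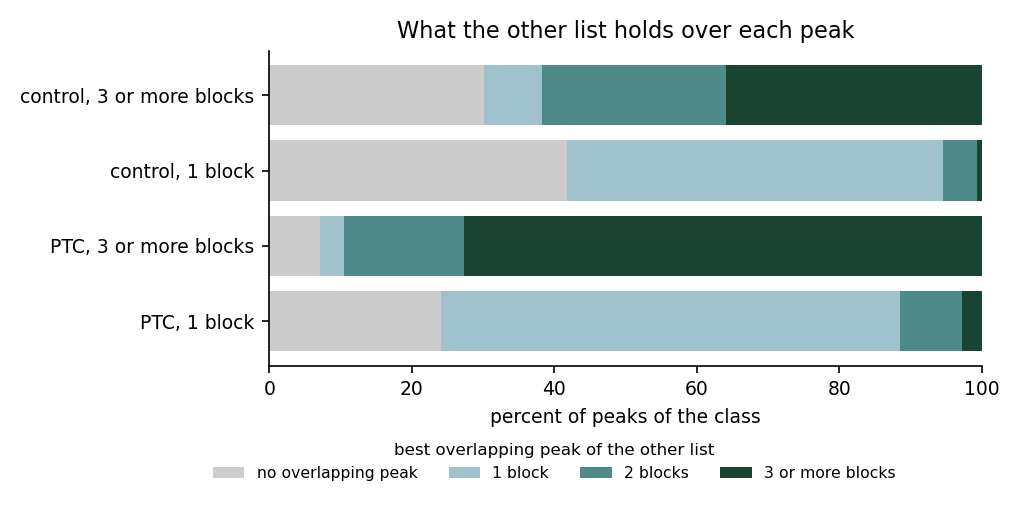
Percent of the peaks of each class (x axis) by the overlapping peak with the most blocks in the other list (grey, none; light to dark green, 1 block, 2 blocks, and 3 or more blocks); each bar is a class of a list. Of control members 30.1% have no partner and 35.9% meet a peak of 3 or more blocks, and of PTC members 7.11% have none and 72.7% meet one. Among peaks of 1 block, 41.8% in control and 24.1% in PTC have no partner.

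Control members without a PTC partner were short and lay in coding sequence. Their median width was 241 nt, their median fold enrichment 2.62 and their median −log10 FDR 5.17, against 691 nt, 3.83 and 25.5 for members with a partner. The midpoint was in coding sequence for 99.6% of the 537 with a region (98.7 to 99.95%), against 78.7% with a partner (76.1 to 81.1%). The whole peak was coding for 94.0%, against 51.5%. Among control members under 400 nt, the midpoint was coding for 99.6% without a partner and 96.7% with one, and the wholly coding share was 93.6% without a partner (91.1 to 95.7%) and 82.7% with one (77.6 to 87.0%). Control peaks of fewer blocks without a partner were also shorter and weaker by FDR than those with one. For 1 block the median width was 180 against 359 nt and the median −log10 FDR 3.17 against 7.79. For 2 blocks these were 180 against 479 nt and 3.62 against 17.5. Among control peaks of 1 block the midpoint was coding for 22.5% without a partner and 32.1% with one. The 53 PTC members without a control partner that had a region lay in coding sequence in 100% of cases.

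By gene, 1973 genes had a member in control, which is 17.3% of the 11390 genes of that list, and 1106 had one in PTC, which is 10.2% of 10859. Both lists had a member in 863 genes, 43.7% of the control genes and 78.0% of the PTC genes. A member in the control list only was held by 1110 genes, and in the PTC list only by 243. Most of these genes still had some peak in the other list. Of the genes with a control member, 78 (3.95%) had no PTC peak, where 13.64% of all control genes had none, and of those with a PTC member 13 (1.18%) had no control peak, where 9.42% of all PTC genes had none. As a share of all 12413 genes of either list, 12.5% were in the control list only and 8.24% in the PTC list only.

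The share of genes with a member went with the number of exons. Counting exons in the annotated transcript with the most of them, a member was held in control by 11.99% of genes with 3 to 5 exons, 17.9% with 6 to 10, 25.7% with 11 to 20 and 35.7% with 21 or more. In PTC these shares were 8.09%, 10.6%, 14.5% and 19.4%. The genes with a member in either list had a median of 12 exons, against 7 for all listed genes. Macf1 had 11 members in control, Rnf213, a very large ubiquitin ligase, 8, and the histone methyltransferase gene Kmt2d and the talin gene Tln1 7 each. In PTC the highest number was 4, in Macf1, in the myosin gene Myh9, in Smc4, a condensin subunit, and in Tpr, a nuclear pore protein, among others.

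Among 78 genes with a control member and no PTC peak, the strongest members were those of Ndufa9, Parp1, Fmnl1, Grk6, Bag6 and Smn1. Ndufa9, a subunit of respiratory complex I, had its only control peak at chr6:126844332-126849077 on the minus strand, with blocks of 14, 239 and 74 nt, a fold enrichment of 4.18 and 22.9 for its −log10 FDR. Parp1, a DNA damage-responsive polymerase, had 4 control peaks, 1 of them a member of 270 nt at chr1:180577667-180580555 with a −log10 FDR of 21.4. Fmnl1, a formin of blood cells, had a member of 4 blocks (−log10 FDR 18.2), and Bag6, a chaperone of protein sorting, a member of 5 blocks (15.8). Grk6, a kinase that acts on G protein-coupled receptors, had 3 members (highest −log10 FDR 17.8), and Smn1, which acts in the assembly of spliceosomal particles, 1 (14.6).

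Of the 13 genes with a PTC member and no control peak, the strongest were Pde6h and Pfdn2. Pfdn2, a prefoldin subunit, had a PTC peak of 299 nt at chr1:171356541-171357884 with a −log10 FDR of 9.61, and the others of this kind, Ifi30, Ubxn1, Zcrb1 and Flot1, had values from 3.03 to 7.02. Pde6h had 21.6, with a fold enrichment of 1.48 on the plus strand. It lies across Arhgdib, which is on the minus strand, and 60 of the 210 nt of its blocks were also in the PTC peak of Arhgdib. A peak of the opposite strand in the same list lay over 6.27% of control members and 7.89% of PTC members, against 6.50% and 6.92% of peaks with 1 block. Whether strand was used in counting is not given in the sources used here, so reads of such pairs cannot be told apart.

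In genes with peaks in both lists, the strongest control members without a PTC partner were those of Ist1, Eif4g2, Csk, Hnrnpu, Lsp1 and Wars. Ist1, a protein of the membrane-cutting ESCRT machinery, had a wholly coding peak of 5 blocks and 420 nt at chr8:109678929-109683705, at a fold enrichment of 5.52 (−log10 FDR 38.6). The 4 PTC peaks of Ist1 all had 1 block. Eif4g2, a translation factor, had a member of 5 blocks with a −log10 FDR of 37.4, and its 7 PTC peaks included none of 3 blocks. Csk, the kinase that restrains Src-family kinases in T cell receptor signalling, had a member of 449 nt (36.9) and 2 PTC peaks of 2 blocks. Of the PTC members without a control partner in genes that do have a control peak, Flna, an actin crosslinker, had the highest value (15.4), followed by Psap (15.2), the precursor of the saposins.

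Most of the listed chaperone genes had a member in both conditions. Of 22 listed chaperonin, HSP90 and HSP70 genes, 14 had a member in control and 13 in PTC, 12 of them in both, beside 17.3% and 10.2% of all listed genes. Hsp90ab1, the constitutive HSP90, had a peak of 6 blocks and 1979 nt in each list, shifted so that 98.5% was shared. Hspa5, the HSP70 of the endoplasmic reticulum, had 2 members in each. Hsp90b1, its HSP90 counterpart, had a control member of 9 blocks and 1195 nt that the PTC list gave as members of 7 and 3 blocks. These chaperone genes have a median of 12 exons, against 7 for all listed genes. With 11 to 20 exons, 25.7% of all listed genes had a member in control and 14.5% in PTC.

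Translation factors and tRNA synthetases also held members in both lists. Of 33 listed control translation factor genes 12 had a member (36.4%), and of 32 in PTC 8 (25%), all of them among the 12, beside 17.3% and 10.2% of all listed genes. Eif3c had a control peak of 10 blocks and a PTC peak of 7 blocks inside it, and Eif5b, a factor of ribosomal subunit joining, had peaks of 7 and 8 blocks. Of the tRNA synthetases 11 of 18 (61.1%) had a control member and 5 of 16 (31.2%) a PTC member, again all among the 11. The median number of exons was 12 for the translation factor genes and 16 for the synthetase genes. Of all listed genes with 11 to 20 exons, 25.7% had a member in control and 14.5% in PTC. Aars, the alanyl-tRNA synthetase, had a control member of 4 blocks and a PTC member of 3, both over its stop codon. Sars, the seryl-tRNA synthetase, had a control member of 509 nt (−log10 FDR 45.6), of which PTC peaks covered 35.6%. Cytosolic ribosomal protein genes had a member in 0 of 25 listed control genes and 0 of 26 in PTC, and replication-dependent histone genes, which have no introns, in 0 of 7 and 0 of 11.

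Of the MCM and replication factor genes 7 of 26 had a control member and 0 of 23 a PTC member, where 17.3% and 10.2% of all listed genes had one. Mcm3, a subunit of the replicative helicase, had a control peak of 6 blocks and 745 nt at chr1:20809678-20814428 with a fold enrichment of 4.94, of which a PTC peak of 2 blocks covered 28.1%. Mcm6 and Rpa1, a single-strand DNA binding protein, had control members covered by PTC peaks of 2 blocks to 71.6% and 50.1%. Mcm2 had 6 control peaks and 1 PTC peak. Of the glycolysis and TCA cycle genes 7 of 23 (30.4%) had a control member and 2 of 21 (9.52%) a PTC member, the latter close to the share of all listed genes. The median number of exons was 11 for the replication genes and 12 for the glycolysis and TCA cycle genes. Of all listed genes with 11 to 20 exons, 25.7% had a member in control and 14.5% in PTC. Mdh2, malate dehydrogenase, had 1 in each list (211 and 241 nt), while the control members of Sdha, a succinate dehydrogenase subunit, and Ogdh, an oxoglutarate dehydrogenase subunit, had no PTC partner.

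T cell receptor signalling genes had a member in 20 of 39 cases (51.3%) in control and 14 of 39 (35.9%) in PTC, 13 of them in both, beside 17.3% and 10.2% of all listed genes. The genes of this pathway have a median of 13 exons. Of all listed genes with 11 to 20 exons, 25.7% had a member in control and 14.5% in PTC. Ptpn22, a phosphatase of this pathway, had a member of 871 nt in control and 781 nt in PTC, with fold enrichments of 7.44 and 5.67. Themis, an adaptor of thymocyte selection, had the same 3 blocks of 22, 1052 and 35 nt in both lists. Of the T cell markers 9 of 21 (42.9%) had a control member and 4 of 22 (18.2%) a PTC member. Cd8b1 had 2 members in each list, at fold enrichments of 4.07 and 3.4 in control and 4.39 and 2.91 in PTC. Cd8a had a control member of 4 blocks and 1550 nt, which ends in a block of 1330 nt of the last exon, and the 3 PTC peaks of Cd8a had 1 block each. B cell markers with a member were 4 of 14 and 4 of 13, among them Cd79b (5 blocks in both) and Ms4a1, which encodes CD20. Myeloid markers with one were 2 of 9 (22.2%) and 2 of 12 (16.7%), with the same 3 blocks of Ctss, the protease cathepsin S, in both lists.

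Genes that handle RNA and chromatin had members in both lists. Of the exon junction complex and spliceosome genes 16 of 37 (43.2%) had a control member and 10 of 38 (26.3%) a PTC member, beside 17.3% and 10.2% of all listed genes. Hnrnpm, a splicing regulator, had the same member of 16, 54 and 799 nt in both lists, and Upf2, a factor of nonsense-mediated decay, had members of 838 and 1287 nt at fold enrichments of 10.7 and 7.38. Of the m6A writers, erasers and readers 8 of 22 (36.4%) had a control member and 6 of 21 (28.6%) a PTC member. Virma, a subunit of the methyltransferase complex, had 5 in control and 1 in PTC, among 7 and 8 peaks of any block count. Ythdf2, a reader that promotes decay, had a control member of 2421 nt over its stop codon that PTC covered to 97.5% with a peak of 2 blocks. Of the Polycomb genes 8 of 28 (28.6%) and 5 of 28 (17.9%) had a member. Suz12, a subunit of Polycomb repressive complex 2, had one over its stop codon in both lists (1289 and 1199 nt), and Phc3, a subunit of complex 1, likewise (1230 and 1380 nt). Of the proteasome genes 12 of 35 (34.3%) and 9 of 32 (28.1%) had one. The median number of exons was 12 for the spliceosome and Polycomb lists, 10.5 for the m6A list and 10 for the proteasome list. Of listed genes with 6 to 10 exons 17.9% and 10.6% had a member, and of those with 11 to 20 exons 25.7% and 14.5%.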

How the data were processed

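Immunoprecipitated and input RNA of control and PTC-treated mouse T cells was sequenced, and 1 peak list per condition was deposited. The submitters' processing notes name BWA 0.7.12, MACS2 2.1.0 and the build GRCm39. The role of these tools, the peak caller, its threshold and any pooling of samples were not given in the sources used here. Per the file headers, each peak has exon blocks, a fold enrichment (a linear ratio), a p-value, and scores that are log10 of the p-value and of the FDR, all made by the authors and deposited as such. The p-values were not used. Read depth is unknown. Coordinates were read as GRCm38, because 99.9% of control and 99.8% of PTC peaks lay in the gene of the same identifier in GENCODE M21, and none was converted.

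Blocks were compared on the same strand with Python 3.11.15, numpy 2.4.6, pandas 2.3.3 and scipy 1.17.1, with plots by matplotlib 3.10.9. An overlap was at least 1 bp. Peaks that were a continuous slice of 1 annotated transcript were given a region by their midpoint and searched for GGACT and DRACH (in IUPAC letters). Shares and medians carry 95% intervals for counting error. With 1 list per condition no test was run. The functions gave the right answer in 9 of 9 checks on simulated data. The members and the 17 gene lists were chosen with earlier results of these data known. Of 503 symbols in them 502 were matched.

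Genes named per list were the 6 members with the most blocks, the 6 with the highest −log10 FDR, the 4 widest, the 4 genes with the most members, the 6 strongest whose gene has no peak in the other list, the 6 strongest not overlapped though the gene has one, and up to 4 per gene list, without unnamed gene models, pseudogenes, mitochondrial genes and immunoglobulin or T cell receptor segments. Not every gene this rule picks is reported here. Printed sequences followed their own rule, given beside them. The alternatives were thresholds on FDR and fold, equal list length, other block rules, other overlap rules, another region rule and another motif.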

Additional observations from a re-analysis of the deposited data

How the results depend on the processing

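No paired analysis was possible because the lists carry no sample numbers and no result comes from a test. Values below are control first. Under the alternatives 53 of 96 values stayed inside the interval of the reported one (for counts, a factor of 1.5) and 43 moved; of 487 recomputed coverages of named peaks 465 kept an overlap, or its absence. With peaks of −log10 FDR under 5 left out, members were 13.2% and 7.98% of peaks, with widths of 600 and 681 nt, control internal blocks of 145 nt and 82.0% of control midpoints coding; there the overlap of control members (70.7%) and of control peaks with 1 block (69.4%) came close. At a fold of at least 4 the values were 7.44% of control peaks, 899 and 959 nt, internal blocks of 150 and 158 nt, overlaps of 65.3% and 77.0%, 602 genes in control only, coding shares of 70.8% and 67.4%, and 1.30 GGACT per 1000 nt in PTC. At equal list length they were 10.4%, 509 nt and 73.1% overlapped, all for control. With 4 or more blocks they were 2.85% and 1.34%, 688 and 800 nt, PTC internal blocks of 137 nt, overlaps of 81.3% and 97.1%, 519 and 74 genes in 1 list only, coding shares of 88.0% and 86.9%, and 1.07 GGACT in PTC. Without blocks under 10 nt they were 7.66% and 4.75%, 510 and 601 nt, and 72.1% of control members overlapped. With 50% of each peak shared the overlaps were 53.0% and 77.4%, and with midpoints within 100 bp 37.0% and 50.8%, where control peaks with 1 block had 37.5%. DRACH gave 22.4 and 23.3 per 1000 nt. Joining blocks across gaps of up to 10 nt moved none of these values. The depth is unknown, blocks follow steps of about 30 nt, and presence in 1 list has no replicate check.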
